A study of Homo sapiens with 5 samples.

Results

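The promoters of 40 genes that encode nucleolar ribosome biogenesis proteins were examined for binding of MYC, E2F1 and Fra-1 in LM2 cells. The members are a list of named genes, chosen by function, from snoRNP core proteins to assembly factors of both ribosomal subunits, and all 40 were found among the 20098 protein-coding genes of the annotation. LM2 is a single derivative of the triple-negative breast cancer line MDA-MB-231 that was selected for metastasis to the lung. The sample records give the cells as untreated. A supplementary legend of the paper, however, mentions LM2 cells with a control vector or shRNA in connection with ChIP-Seq. The data were ChIP-Seq peak lists, with 1 library for each of the 3 factors and the same input DNA as control for all of them. A gene was counted as bound when a peak overlapped the window from 2 kb upstream to 2.5 kb downstream of any of its annotated transcription start sites (TSS). The best peak of a gene was the one with the largest fold enrichment, which is the fragment pileup at the summit divided by the local background from the input. As no factor had a replicate library, there was no replicate error and no test was made, and each count is set beside the same count for the other 20058 protein-coding genes.

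Ribosomes are assembled in the nucleolus, where RNA polymerase I transcribes the precursor of the ribosomal RNAs. Small nucleolar RNAs (snoRNAs), held in ribonucleoproteins called snoRNPs, guide the modification of this precursor, and a succession of helicases, GTPases and scaffold proteins folds and cuts it into both subunits. MYC binds DNA as a dimer with MAX, with preference for the E-box, and ribosome biogenesis genes are among its best known targets. E2F1 is a transcription factor of the cell cycle, and Fra-1 (FOSL1) is a subunit of AP-1.

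MYC peaks were present at 36 of the 40 nucleolar genes (90.0%), against 17.7% of the other protein-coding genes (3551 of 20058). E2F1 peaks were present at all 40, against 61.2% of the other genes. Fra-1 peaks were present at 6 genes (15.0%), close to the 13.2% found elsewhere. Thus, in these lists the gap between the nucleolar genes and the background was widest for MYC, smaller for E2F1 and small for Fra-1. The lists differ in length, and with all members bound the E2F1 gap could not be wider. With lists of equal length, E2F1 peaks were found at 72.5% of the members and 25.6% of the other genes, and the MYC shares were unchanged. Peaks of both MYC and E2F1 without Fra-1 were found at 31 members (77.5%, against 13.0% of the other genes), and peaks of all 3 factors at 5 members (12.5%, against 4.66%). The last count was 2 with 1 canonical TSS per gene and 1 with lists of equal length, and at 0 of the 5 did the best Fra-1 peak overlap a MYC peak. Of the genes with peaks of both MYC and E2F1, 5 of 36 members also had a Fra-1 peak, against 934 of 3542 other genes. The remaining 4 members had no MYC peak. NPM3, RRP1B and RRN3 carried E2F1 alone, and UBTF carried E2F1 with Fra-1.

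**Figure D1:**
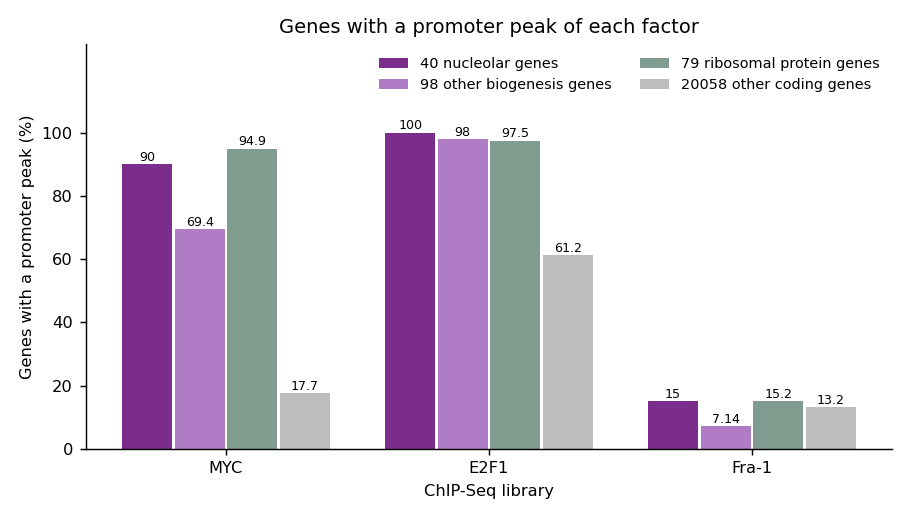
Percentage of genes (vertical axis) with a promoter peak of MYC, E2F1 or Fra-1 (horizontal axis), as bars for the 40 nucleolar genes, 98 other ribosome biogenesis genes, 79 cytosolic ribosomal protein genes and all 20058 protein-coding genes other than the 40. The MYC bar of the nucleolar genes stands at 90.0% and that of the other coding genes at 17.7%, while the Fra-1 bars lie between 7.14% and 15.2%.

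Several of these promoters held the E-box letters CACGTG, which read the same on both strands, close to the MYC summit. An E-box lay within 50 bp of the best MYC summit at 12 of the 36 members with a peak (33.3%), against 18.1% of the other genes with a MYC peak. The sequences of the 10 of these with the largest fold enrichment are shown, leaving out RRS1, to let the sites be compared. Each is 30 bases (or, for DKC1, a longer stretch without an annotated exon) of the reference genome hg19 (GRCh37), not of LM2 DNA, read 5′ to 3′ on the strand of the gene, with the E-box in capitals.
GNL3 (chr3:52720042-52720071, plus strand): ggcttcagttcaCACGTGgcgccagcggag
NOP14 (chr4:2965101-2965130, minus strand): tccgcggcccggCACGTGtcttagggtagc
NCL (chr2:232328494-232328523, minus strand): ctgtgtttcgggCACGTGgtggcctaccag
NCL (chr2:232328551-232328580, minus strand): ctggcaagccgaCACGTGgtgggccccgga
WDR43 (chr2:29117524-29117553, plus strand): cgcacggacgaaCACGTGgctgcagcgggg
DKC1 (chrX:153991742-153991842, plus strand): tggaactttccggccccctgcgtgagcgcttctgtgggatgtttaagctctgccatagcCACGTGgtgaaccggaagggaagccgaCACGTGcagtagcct
MYBBP1A (chr17:4458635-4458664, minus strand): ggggccggagcaCACGTGtttcgtgtttcg
NOP56 (chr20:2632510-2632539, plus strand): gcggaggagcaaCACGTGgcccagcaaaag
UTP4 (chr16:69166524-69166553, plus strand): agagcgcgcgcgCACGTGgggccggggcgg
DDX18 (chr2:118572254-118572283, plus strand): ggccgagctgcgCACGTGcggccggaaggg
NOP10 (chr15:34635490-34635519, minus strand): gtagggacactcCACGTGttttagcctgca

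Of those shown, the closest was the E-box of MYBBP1A, whose centre lay 1.5 bp from the MYC summit. The E-boxes of RRP12 and RRS1 complete the 12. NCL and DKC1 had 2 E-boxes each within 50 bp of the summit. The NCL peak was 1001 bp long (chr2:232328256-232329256). In both genes the summit lay in intron 1, downstream of the TSS of the canonical transcript, by 663 bp at NCL and 653 bp at DKC1. NPM1 shared this position, with its MYC summit 652 bp downstream of the canonical TSS and in intron 1. Its 2 E-boxes, 11 bp apart, were 75.5 and 86.5 bp from the summit and thus outside the 50 bp used for the count. The NPM1 pair, chosen after its values were seen, is shown for the spacing of its sites.
NPM1 (chr5:170815566-170815595, plus strand): aaccgctgggagCACGTGgttgcCACGTGg

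Counted over the whole of the best MYC peak, E-boxes were found at 23 of 36 members (63.9%), against 26.8% of the other genes with a MYC peak. The median length of these peaks was 348.5 bp in the members and 191 bp elsewhere. Per kilobase of peak, members had 2.05 E-boxes and the other genes 1.26. At least 2 E-boxes were found in the peaks of 7 members (19.4%, against 4.03%), and NCL with 5 had the most. Without reference to any peak, an E-box was present between 250 bases before and 50 bases after the canonical TSS of 18 of all 40 members (45.0%), against 8.66% of the other genes. At the best E2F1 summits, an E-box lay within 50 bp in 10 of 40 members, against 3.51% of the other genes with an E2F1 peak. Letters of the E2F motif (TTTCCCGC, TTTCGCGC, TTTGCCGC or TTTGGCGC, either strand) were found within 50 bp of 1 of these 40 summits, that of NOLC1, against 3.59% elsewhere. E-box letters were thus present at more E2F1 summits of the members than E2F letters were.

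The strength of MYC peaks, taken as fold enrichment, varied more than 5-fold among the members, from 4.54 at UTP15 to 25.7 at PPAN. Fold enrichment depends on the local input background as well as on the pileup, so its order is not that of the pileups. Their median best fold enrichment was 10.2, against 7.20 for the other genes with a MYC peak, and 16 of the 36 were in the top 10% of all 3587 genes with such a peak. For E2F1, the median was 29.0 (range 9.27 to 75.1) against 22.0, with 11 of 40 in the top 10%. For Fra-1, the median over 6 members was 9.70 (range 4.53 to 26.3) against 8.38. Members with an E-box within 50 bp of the MYC summit had a median MYC fold enrichment of 13.0 (n = 12), and those without it 9.93 (n = 24). The other genes with a MYC peak differed in the same direction, with medians of 8.17 (n = 643) and 6.99 (n = 2908). Among the members the ranges were 4.65 to 22.1 and 4.54 to 25.7, so both kinds covered nearly the whole scale. PPAN, the strongest member, had no E-box in its peak.

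**Figure D2:**
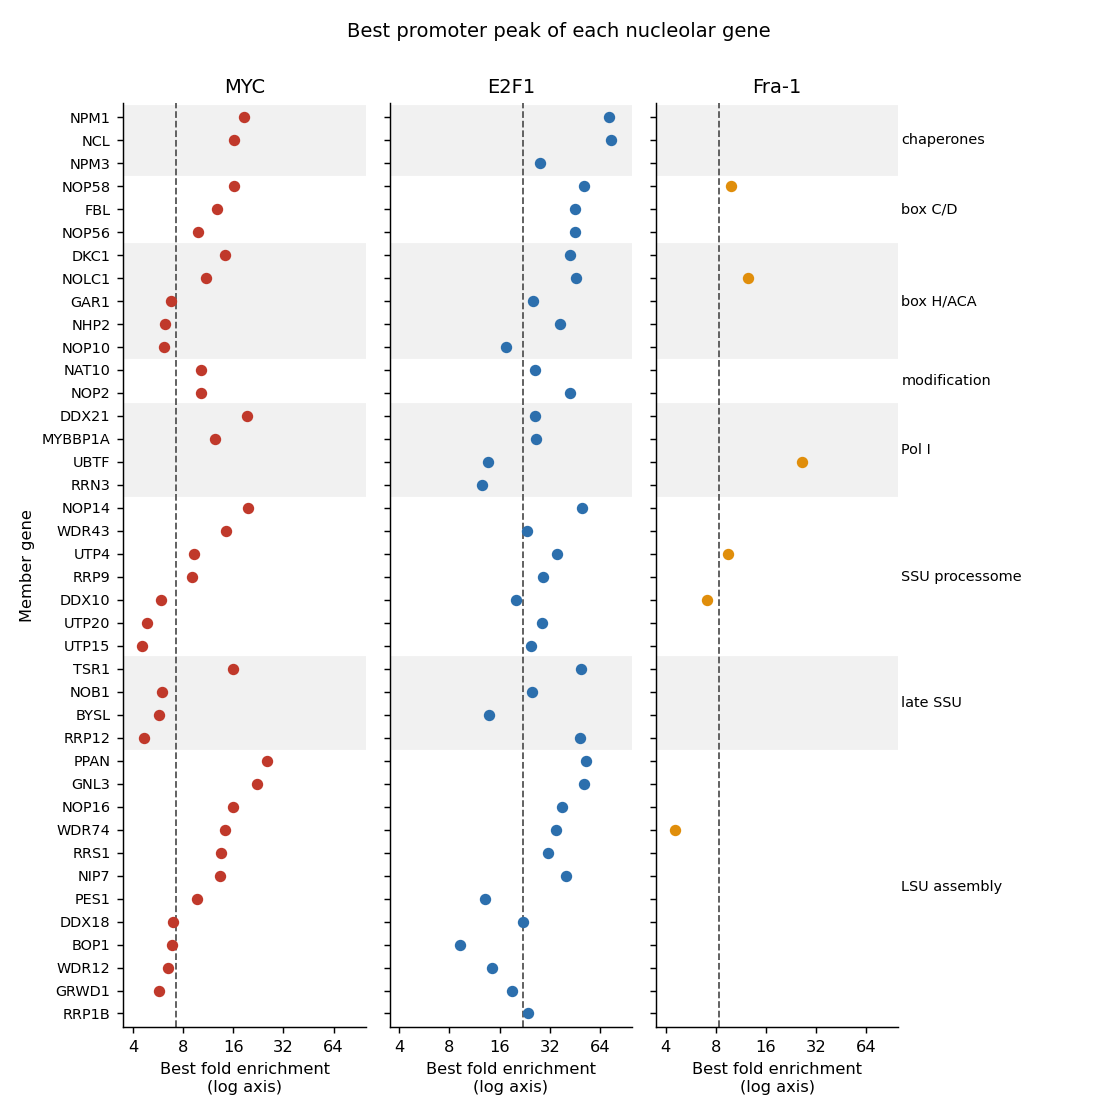
Best fold enrichment (horizontal log axis) of each of the 40 nucleolar genes (vertical axis, grouped by role and ordered by MYC within a role) in the MYC, E2F1 and Fra-1 libraries. SSU and LSU are the small and large ribosomal subunits and Pol I is RNA polymerase I. No point means no promoter peak, and dashed lines mark the medians of the other coding genes with a peak (7.20 in the MYC list, 22.0 in the E2F1 list, 8.38 in the Fra-1 list). All 40 genes have an E2F1 point and 6 have a Fra-1 point.

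The abundant nucleolar proteins showed the strongest E2F1 peaks. NCL encodes nucleolin, a pre-rRNA binding protein, and its best fold enrichment was 16.1 for MYC and 75.1 for E2F1. NPM1, which encodes the histone chaperone nucleophosmin, had 18.5 for MYC and 72.5 for E2F1. These were the highest E2F1 values of the 40, and they ranked 19 and 31 among 12321 genes with an E2F1 peak. NPM3, a gene of the same nucleoplasmin family as NPM1, had an E2F1 value of 27.9 and no MYC peak in its window. The nearest MYC summit was 34900 bp from any of its TSS. The E2F1 summit of NCL lay 628 bp from its MYC summit, and that of NPM1 986 bp from its own. Measured from the canonical TSS, the E2F1 summit was the nearer in both genes, and the MYC summit lay inside the gene. Both MYC summits were, however, upstream of another annotated TSS, which was the nearest to them. By the nearest annotated TSS, the E2F1 summit was the nearer at NCL and the MYC summit at NPM1.

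All members of the list in the box C/D and box H/ACA snoRNP groups had peaks of both MYC and E2F1. The box C/D particles methylate rRNA through fibrillarin, encoded by FBL, which had fold enrichments of 12.7 for MYC and 45.5 for E2F1. NOP58, a scaffold protein of the particle, had peaks of all 3 factors, at 16.2 for MYC, 51.4 for E2F1 and 9.91 in the Fra-1 library. Its partner NOP56 had 9.88 for MYC and 45.2 for E2F1. NOP56 also had the most peaks, with 5 of MYC and 10 of E2F1 over its windows, and its best MYC summit lay 736 bp upstream of the nearest TSS, with the centre of the E-box printed above 21.5 bp from it. All 3 box C/D genes were thus in the upper range of E2F1 fold enrichment. This order rests in part on the input background. The best E2F1 peaks of FBL and NOP56 each had a pileup of 70, over a background of about 0.56 and 0.57. NOP10, with a pileup of 68 over about 2.97, had 17.4, and BYSL, with 81 over about 4.955, had 13.8.

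In the box H/ACA group, DKC1 encodes the pseudouridine synthase dyskerin, and it had the highest MYC value of the group (14.3, with 42.1 for E2F1). The small partner proteins of dyskerin had weaker MYC peaks. NHP2 had 6.20, GAR1 6.75 and NOP10 6.14, with E2F1 values of 36.7, 25.3 and 17.4. All of these lay below the MYC median of the other bound genes. NOLC1, which encodes an snoRNP chaperone, had 11.0 for MYC and 46.1 for E2F1, and 12.6 in the Fra-1 library. The rRNA modification enzymes outside the snoRNPs were close to each other in MYC strength. NAT10, a cytidine acetyltransferase, had 10.3 for MYC and 26.0 for E2F1, and NOP2, a cytosine methyltransferase, had 10.2 and 42.4.

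In the group of RNA polymerase I transcription, UBTF encodes the rDNA-binding factor UBF, and RRN3 the factor that recruits the polymerase. Both were among the 4 members without a MYC peak in their windows. The nearest MYC summits were 9306 bp and 582025 bp from a TSS of these genes. Their E2F1 values, 13.6 and 12.5, were among the 6 lowest of the 40. The pileup of these E2F1 peaks was 28 at UBTF and 61 at RRN3, over a background of about 1.14 and 3.97. By contrast, both nucleolar regulators placed in the same group had strong MYC peaks. DDX21, an RNA helicase, had 19.4 for MYC and 26.0 for E2F1. MYBBP1A, which encodes a MYB-binding nucleolar protein, had 12.5 and 26.6.

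All 7 genes of the small-subunit processome, which makes the early cuts in pre-rRNA, had MYC peaks, over nearly the whole range of strength. NOP14 had 19.5 for MYC and 50.04 for E2F1, and WDR43 had 14.6 and 23.5. UTP4 (9.30 for MYC, 35.3 for E2F1) and RRP9, a protein of the U3 snoRNP (9.07 and 29.2), were intermediate. At the low end were the helicase gene DDX10 with 5.91, UTP20 with 4.84 and UTP15 with 4.54 for MYC. The −log10 q of these 3 MYC peaks was 4.20, 3.79 and 3.09, and their E2F1 values were 19.9, 28.8 and 24.6. All 3 E2F1 values lay below the median of the members, 29.0.

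The late small-subunit factors were split in a similar manner. TSR1, an assembly factor, had 15.8 for MYC and 49.4 for E2F1. NOB1, the endonuclease that makes the final cut of the small-subunit rRNA, had 5.96 and 25.2, and BYSL, which encodes bystin, had 5.73 and 13.8. RRP12, a factor of pre-ribosome export, had 4.65 for MYC and 48.4 for E2F1. These RRP12 values came from different places. The MYC summit was 38 bp downstream of the canonical TSS, and the best E2F1 summit was at another annotated start, 24853 bp upstream. The E2F1 peak that overlapped the MYC peak of RRP12 had a fold enrichment of 12.5.

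Among the 12 large-subunit assembly factors, 11 had a MYC peak. PPAN had the strongest MYC peak of all members (25.7, with 53.1 for E2F1) and ranked 7 among the 3587 genes with a MYC peak. GNL3, the gene for the GTPase nucleostemin, came next with 22.1 and 51.2, and ranked 20. In PPAN the MYC summit lay 10 bp downstream of the TSS in the untranslated part of exon 1 (chr19, position 10217048), and in GNL3 it lay 6 bp downstream of the nearest TSS (chr3, position 52720071). Both summits were thus at the start of the gene. NOP16 (15.9 for MYC), WDR74 (14.4), RRS1 (13.6) and NIP7 (13.4) followed, with E2F1 values between 31.3 and 40.1. PES1, BOP1 and WDR12 encode the subunits of 1 complex, which acts in the maturation of large-subunit rRNA. Their MYC values were 9.66, 6.81 and 6.52. Their E2F1 values were 13.0, 9.27 and 14.4, so that the whole complex was among the 6 members with E2F1 below 15. The helicase gene DDX18 (6.95 for MYC, 22.2 for E2F1) and GRWD1, a gene for a WD-repeat histone-binding protein (5.75 and 19.0), were also weak. RRP1B had no MYC peak in its window, with the nearest summit 42431 bp away, and an E2F1 value of 23.7.

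MYC and E2F1 were then compared at the same promoters. The best MYC peak overlapped an E2F1 peak by at least 1 bp at 36 of 36 members, and the MYC summit was inside an E2F1 peak at all of them but BOP1. In the other genes, 3486 of 3551 best MYC peaks overlapped an E2F1 peak. The median distance between the best MYC and E2F1 summits was 67.5 bp for the members and 117.5 bp for the other genes. This spacing ranged from a few bases to many kilobases. It was 4 bp at UTP15, 5 bp at NOP14, 6 bp at GNL3 and 7 bp at PPAN. At the other extreme were BOP1 with 1589 bp and RRP12 with 24891 bp.

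As nearly all MYC peaks lay at genes with E2F1 peaks, the members were also set beside genes of like E2F1 strength. Among the other genes with an E2F1 peak, 28.8% had a MYC peak (3542 of 12281). With a best E2F1 fold enrichment under 15, MYC peaks were found at 4 of 6 members and at 8.58% of the other genes. From 15 to 30 they were found at 13 of 15 members and 25.5% of the others, and from 30 to 45 at 8 of 8 members and 47.8% of the others. At 45 or more, 11 of 11 members and 68.8% of the others had a MYC peak. The share was higher in the members in each of the 4 ranges. The median MYC fold enrichment of the bound members was 6.67, 6.75, 13.5 and 16.1 over these ranges, and that of the other genes 6.66, 6.99, 7.31 and 7.91. In the lower ranges the members' median MYC value was thus close to that of the other genes, and in both ranges above 30 it was higher. Single members departed from this order. DDX21 (MYC 19.4), WDR43 (14.6) and MYBBP1A (12.5) had strong MYC peaks with E2F1 below 30, and NHP2 had a MYC value of 6.20 with E2F1 at 36.7. RRP12 counts in the highest range by an E2F1 peak at another start than its MYC peak.

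**Figure D3:**
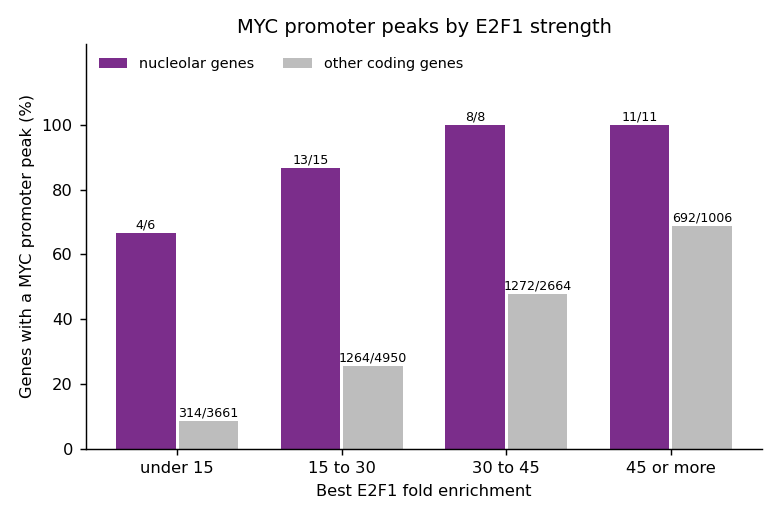
Percentage of genes with a MYC promoter peak (vertical axis) by range of the best E2F1 fold enrichment (horizontal axis), for the nucleolar genes and the other coding genes. Numbers above the bars are genes with a MYC peak over genes in the range, from 4 of 6 members and 314 of 3661 others in the lowest range to 11 of 11 and 692 of 1006 in the highest.

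Across the 36 members with both peaks, the log2 fold enrichments of MYC and E2F1 had a Pearson r of 0.60 and a Spearman rho of 0.64. Across the 3542 other genes with both peaks, r was 0.19 and rho was 0.19. Each point is a gene, the points share the libraries and the input, and genes are not replicates, so these are descriptions of the lists. In the plot of both values, PPAN, GNL3, NOP14, NPM1 and NCL lie together at the upper right, and RRP12 lies apart at high E2F1 and low MYC. The values of RRP12 come from different starts, and without this gene, a choice made after seeing the data, r was 0.67 and rho 0.72 over 35 members.

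**Figure D4:**
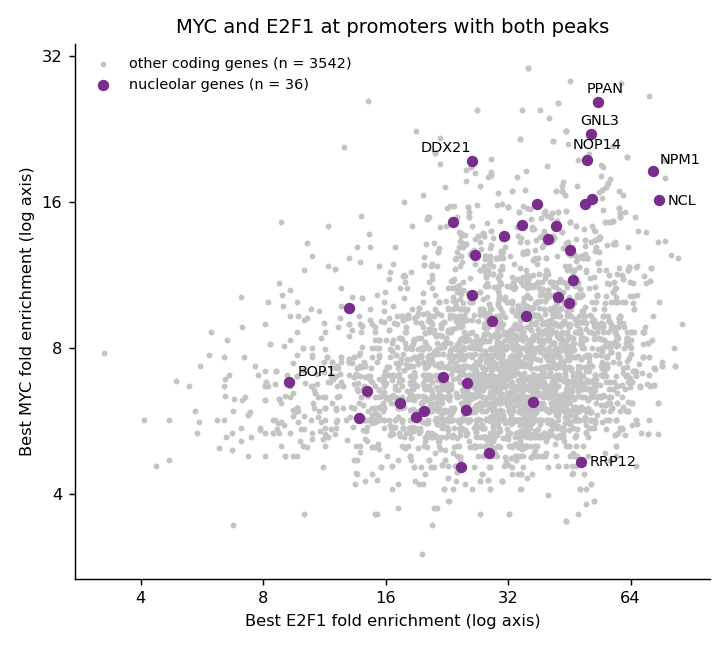
Best MYC fold enrichment (vertical log axis) against best E2F1 fold enrichment (horizontal log axis) for the genes with peaks of both factors, with 36 nucleolar genes in purple and 3542 other coding genes in grey. The members run from BOP1 (E2F1 9.27, MYC 6.81) to NPM1 and NCL (E2F1 72.5 and 75.1).

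The position of the best summit was measured as its distance from the nearest annotated TSS of the gene. For MYC the median absolute distance was 40 bp in the members and 127 bp in the other bound genes, and 24 of 36 summits (66.7%, against 44.1%) were within 100 bp. For E2F1 it was 21 bp against 91 bp, with 31 of 40 within 100 bp, and 48.5 bp in the members when 1 canonical TSS per gene was used. MYC summits ranged from 736 bp upstream (NOP56) to 566 bp downstream (DKC1), with 18 on each side. Relative to the canonical transcript, 13 MYC summits were upstream, 12 in the untranslated part of an exon, 4 in coding sequence and 7 in an intron. The members had more annotated starts, with a median of 8 per gene against 5, and hence wider windows (12040 bp against 9224 bp), and the GC content of 1 kb around the start was 59.5% against 61.2% (medians). With 1 canonical TSS per gene, MYC peaks were still found at 36 members and at 15.7% of the other genes, and the median MYC distance of the members was 53 bp.

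**Figure D5:**
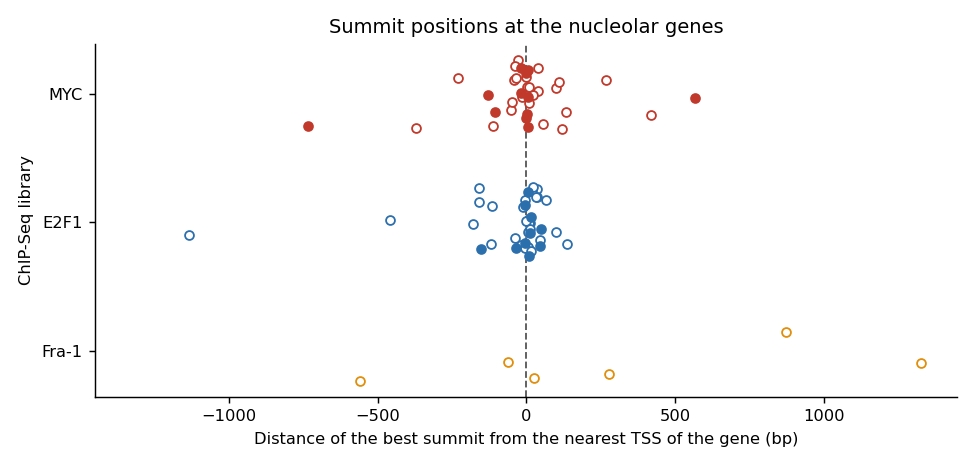
Distance in bp of the best summit from the nearest TSS of the gene (horizontal axis, negative upstream) in each library (vertical axis), with 1 point per nucleolar gene that has a peak and vertical scatter without meaning. Filled points have an E-box within 50 bp of the summit (12 of 36 for MYC, 10 of 40 for E2F1 and 0 of 6 for Fra-1), and most MYC and E2F1 points lie around 0 while Fra-1 points are spread.

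Fra-1 peaks were few and mostly far from the main promoter. The 6 members with a Fra-1 peak were UBTF (26.3), NOLC1 (12.6), NOP58 (9.91), UTP4 (9.49), DDX10 (7.10) and WDR74 (4.53). Their median distance from the nearest TSS was 418 bp, against 523.5 bp in the other genes with a Fra-1 peak. Measured from the canonical TSS, the best Fra-1 summit was 772 bp upstream in NOLC1 and 1942 bp upstream in WDR74. In the other four it lay inside the gene, in the window of another annotated start, by 10726 bp in NOP58, 11126 bp in UBTF, 34482 bp in UTP4 and 264388 bp in DDX10. With canonical starts alone, only NOLC1 and WDR74 kept a Fra-1 peak, against 7.24% of the other genes. All 6 best Fra-1 peaks overlapped an E2F1 peak, and 0 overlapped a MYC peak. A weaker Fra-1 peak of NOLC1 (10.0, from 103911644 to 103911984 on chromosome 10) did overlap its MYC peak, which began at 103911841.

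The AP-1 letters TGACTCA (or TGAGTCA on the other strand) lay within 50 bp of the best Fra-1 summit in NOP58 and UBTF, that is 2 of 6 members, against 50.4% of the other genes with a Fra-1 peak. Both are inside introns, and they are shown, chosen after their values were seen, because these were the members with AP-1 letters at a Fra-1 summit. The letters are capitalized, on hg19 and the strand of the gene.
NOP58 (chr2:203141192-203141221, plus strand): tctaagtgatcTGACTCAatattcgtcact
UBTF (chr17:42285903-42285932, minus strand): atgatgccaggcTGACTCAtcacgggggca

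None of the 36 MYC summits of the members had AP-1 letters within 50 bp, against 2.84% of the MYC summits of other genes.

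The list holds 8 members that are also hosts of snoRNAs that lie between their annotated ends. NCL, NOP56, NOP58, DKC1, WDR43, GNL3, TSR1 and PPAN are these hosts. Such snoRNAs are commonly released from introns of the host transcript. All 8 hosts had a MYC peak, with a median fold enrichment of 15.99 for MYC and 50.3 for E2F1. Of the 32 members that are not hosts, 28 had a MYC peak, with medians of 9.18 and 26.3. E-boxes were found in 5 of the hosts within 50 bp of the MYC summit (NCL, NOP56, DKC1, WDR43 and GNL3). Among all members with a MYC peak, such an E-box was found at 12 of 36. Genes outside the list that host snoRNAs were not examined, so a link between hosting and these values was not tested.

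The members were last set beside related genes. Of 98 other ribosome biogenesis genes, 68 had a MYC peak (69.4%), with a median fold enrichment of 9.45, and 96 had an E2F1 peak. The strongest MYC peaks among them were at GTPBP4 (19.6), MRTO4 (18.2), NLE1 (18.0), POP1 (16.9) and NOL6 (16.7). Of 79 cytosolic ribosomal protein genes, 75 had a MYC peak (94.9%), with a median of 10.9, and 77 an E2F1 peak, with a median of 44.2. The 40 nucleolar genes thus lay between both lists in the share with MYC peaks and below the ribosomal protein genes in median E2F1 strength. Fra-1 peaks were found at 7 of the 98 genes and 12 of the 79. Summits close to a TSS were not particular to the members. The median MYC distance was 45.5 bp in the other biogenesis genes and 75 bp in the ribosomal protein genes. Of these MYC summits, 76.5% and 73.3% were within 100 bp. For E2F1 the median distances were 31.5 and 13 bp.

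Some of the members share their promoter with another protein-coding gene. The best MYC peak also lay in the window of such a gene at PPAN (PPAN-P2RY11), GNL3 (PBRM1), NOP14 (GRK4), NOP16 (HIGD2A) and TSR1 (SGSM2). The same held at NIP7 (COG8), RRS1 (an unnamed gene), UTP4 (CHTF8 and DERPC), BOP1 (HSF1), WDR12 (CARF) and UTP15 (ANKRA2). At NOP10 (NUTM1), RRP9 (PARP3) and BYSL (MED20 and an unnamed gene) the summit was nearer to a TSS of the other gene than to the member's own. None of these peaks can be assigned to 1 gene. BYSL also had a second MYC peak (fold enrichment 4.71, −log10 q 6.15), with its summit 5 bp downstream of its nearest TSS. A peak list holds only what passed a q-value of 0.01, and a gene without a peak is one at which none was listed at this depth.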

How the data were processed

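ChIP-Seq peak lists of MYC, E2F1 and Fra-1 were used, 1 library each, and the EZH2 and input samples had no peak list used here. Per the methods and processing notes, the authors trimmed reads (Trimmomatic 0.27), kept unique alignments to masked hg19 (Bowtie 0.12.5), removed duplicates and called peaks with MACS2 2.0.10 per library against 1 input at q of 0.01. The deposited pileup is a signal of overlapping fragments at the summit, the deposited fold enrichment is its ratio to the local input background with a pseudocount of 1, and the authors deposited p- and q-values as −log10 values. Tags after filtering numbered 23853621 (MYC), 18056168 (E2F1), 12931227 (Fra-1) and 10758036 (input), and the lists held 4867, 36933 and 17320 peaks. MYC thus had the most tags and the fewest peaks, and values are only roughly comparable between factors. BED copies of the lists were not used.

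Peaks on chromosomes 1 to 22 and X were assigned to genes of GENCODE 44 mapped to GRCh37, from 1 bp of overlap. Where no canonical transcript was tagged (279 of 20098 protein-coding genes), the principal or else the longest one was taken. Motifs were searched on both strands in whole within 50 bp of summits. The members, the comparison lists and the motifs were chosen with earlier results of these data known. All members may be named, with sequences for the 10 strongest MYC peaks with an E-box at the summit outside chromosome 8, and 5 other biogenesis genes by MYC fold enrichment. Sequences were cut to 30 bases where an exon was annotated. Peak assignment was tested on simulated data. Calculations were made in Python 3.11.15 with pandas 2.3.3, numpy 2.4.6 and scipy 1.17.1, and plots with matplotlib 3.10.9.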

Additional observations from a re-analysis of the deposited data

How the results depend on the processing

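Of 46 alternative values of the summary results, 39 stayed within 1.5 times a count or within the 95% order-statistic interval of a median over the members, and 7 moved. With each list reduced to its 4867 peaks of largest −log10 q, 2 members had a Fra-1 peak (5.0%, against 3.43% of the other genes) and 1 had all 3 factors (2.5%, against 0.863%). The MYC list itself holds 4867 peaks, so under this setting the MYC values, including those of single members, could not move. The median Fra-1 fold enrichment, over 2 members instead of 6, was 19.4 against 9.70. It still counted as unmoved, as the interval over 6 members is wide. With 1 canonical TSS per gene, 2 members had a Fra-1 peak (against 7.24% of the other genes) and the same number all 3 factors (against 2.79%), and the median distance of the best summit was 48.5 bp in the E2F1 list, and 1357 bp in the Fra-1 list. Over all E2F1 peaks in the windows the median distance was 137.5 bp. The number of members with a MYC peak was between 31 (−log10 q of at least 5, without DDX10, NOB1, RRP12, UTP15 and UTP20) and 36, and 33 when NOP10, RRP9 and BYSL were left out, an alternative added after seeing the data. BYSL was left out by its best peak, although it had a second MYC peak 5 bp from its nearest TSS. With equal numbers of peaks, E2F1 was found at 29 members, against 25.6% of the other genes. Of 304 alternative fold enrichments of single members, 9 moved. No paired analysis was possible because each factor has 1 library and the results come from no test.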
